A study of Mus musculus with 4 samples.

Results

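K5 and K6 are mouse pancreatic cancer cells of the C57BL/6 strain, and the comparison described here is K6 against K5 with treatment taken into account. The labels do not say what sets K5 apart from K6 (origin, alleles or clonality), and both are called lines here. All 4 arrays of the series enter: K5 and K6 under control treatment with the solvent DMSO, and K5 and K6 after halofuginone at 100 nM for 24 hours, with 1 array for each line and treatment. The time of the control treatment is not given in the labels. The study as titled is about Nrf2, its target Aldh3a1 and gemcitabine, and its design sets halofuginone against control within each line. The question addressed here is how the lines differ from each other in both conditions.

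Of 36918 gene names on the array, 19093 were tested, each represented by its brightest probe, which had to exceed background clearly (Agilent's flag, called well above background) on 2 or more arrays. Every level below is a log2 processed signal from which the array's own 75th percentile was taken away, so that 0 is that percentile. Levels are given in 1 order throughout: K5 control, K5 halofuginone, K6 control, K6 halofuginone. Every difference is K6 minus K5 on the log2 scale, first between the 2 control arrays (the control pair), then between the 2 halofuginone arrays (the halofuginone pair). Nothing says that the samples came from separate cultures, and with 1 array per line and treatment the p-values concern the disagreement between these 2 pairs, pooled in part over genes.

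Pancreatic ductal cancers carry a ductal, keratin-rich epithelial character to differing degrees. Classical tumours express gastric-type genes such as trefoil factors and claudin 18, while others lose these or express squamous, mesenchymal or neuronal genes. Detoxification enzymes such as the glutathione transferases, many of them targets of Nrf2, and the glycolytic and hypoxia-responsive genes controlled by HIF also vary between pancreatic cancer lines.

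The markers of a ductal epithelial cell were present in both lines. Krt8, a simple epithelial keratin, read 8.02, 8.09, 7.68 and 8.16, Krt18 read 8.70, 8.96, 8.54 and 8.97, and Cdh1, E-cadherin, read 3.93, 3.85, 4.15 and 4.09. Vim, the intermediate filament of mesenchymal cells, was also high on all 4 arrays, at 7.01, 6.97, 6.64 and 7.47. None of these 4 genes differed between the lines past the threshold, and the pair differences of Krt8, Krt18 and Vim had opposite signs, with the fitted sign turning under other scalings. The defining acinar genes Prss1 and Cpa1, the islet genes Ins1 and Ins2, the fibroblast genes Lum and Pdgfrb and the endothelial gene Cdh5 were well above background on none of the arrays. On 2 or more arrays, 4 of 18 acinar, 4 of 20 islet, 2 of 11 endothelial, 5 of 15 fibroblast and stellate and 12 of 25 immune markers were well above background. The summed signals of the 25 immune markers on the array, in units of the 75th percentile, were 36.4, 17.6, 36.5 and 14.5. Those of the 15 fibroblast and stellate markers were 20.2, 12.6, 16.3 and 9.47, and those of the 32 epithelial and ductal genes were 1420, 1100, 1060 and 1030, lower in K6 in both pairs. Ptprc, the pan-leukocyte gene, read 0.86, 1.90, 1.30 and 1.48 at its brightest probe, while 4 of its 7 probes were well above background on no array. Other immune markers were well above background on all 4 arrays at their brightest probe. Cd14 read 4.26, 1.53, 4.03 and 0, Itgam read 2.75, 2.51, 2.66 and 2.32, and Cd3e read 0.82, -0.22, 0.15 and -0.47. Of the 25 immune markers, 10 were well above background on no array. In these bulk samples, fewer cells of a type and less RNA per cell cannot be told apart.

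The lines differed in the same direction in both conditions at many genes. In the control pair, 1478 tested genes (7.74%) were at least 2-fold higher in K6 and 1311 (6.87%) at least 2-fold lower, where the brighter array had to be well above background. In the halofuginone pair the counts were 1817 (9.52%) and 2011 (10.5%). Since these pairs share no array, their overlap is a repeat of the line difference, although all arrays lay on 1 slide. At least 2-fold higher in both pairs were 600 genes (3.14% of the tested genes), which are 40.6% of those higher in control and 33.0% of those higher after halofuginone. At least 2-fold lower in both pairs were 662 genes (3.47%), 50.5% of those lower in control and 32.9% of those lower after halofuginone. Over the tested genes, which do not count as independent replicates, the pair differences correlated at Pearson r = 0.50 and Spearman's coefficient = 0.44, and 65.4% had the same sign. These fold counts carry no test. In 145 of the 600 and 166 of the 662, the lower line was not well above background on either array. Set against the lowest signal well above background, 72 of these 311 genes had a bound under 2-fold.

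A gene's other probes give a second reading of the same arrays. Of the 1262 genes apart in both pairs, 307 had a further probe that passed the same filter. In 270 of these (87.9%) all such probes pointed the same way, and in 201 (65.5%) all were at least 2-fold apart.

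**Figure D1:**
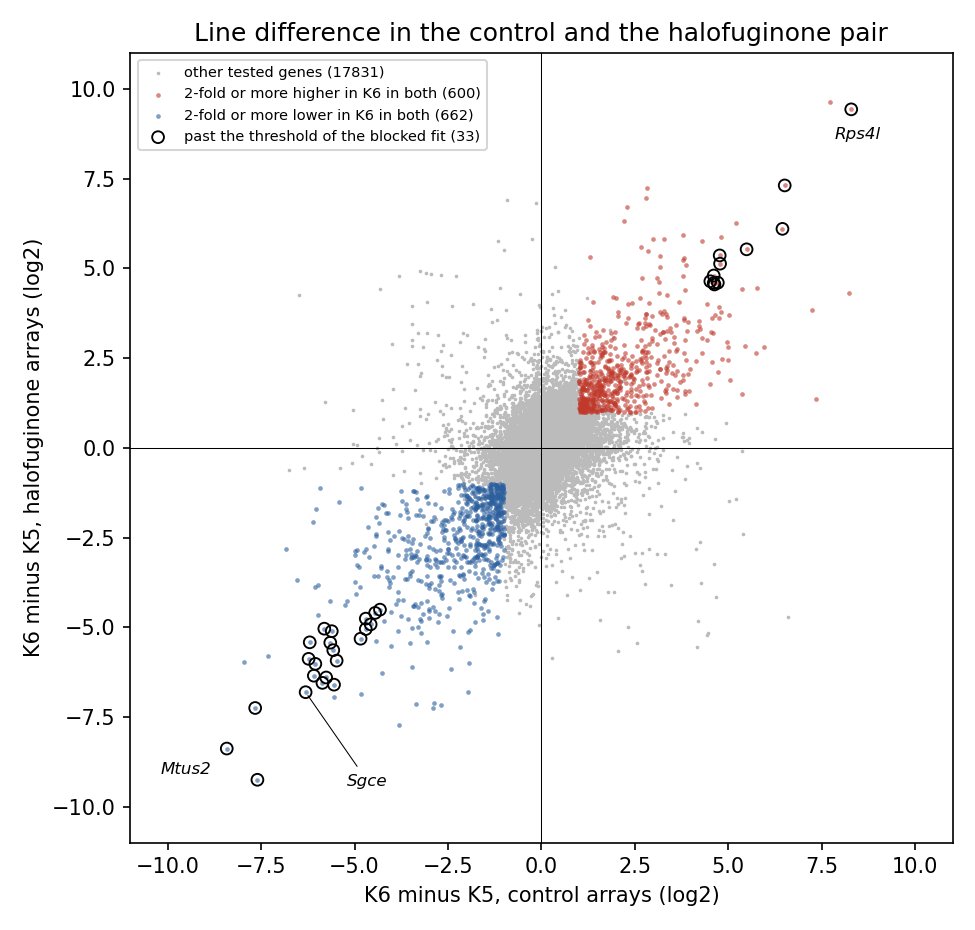
Each point is 1 of the 19093 tested genes, with its K6 minus K5 log2 difference in the control pair on the x axis and in the halofuginone pair on the y axis. Red and blue points are the 600 genes higher and 662 genes lower in K6 by 2-fold or more in both pairs, and the 33 circled genes, which passed the threshold of the blocked fit, lie near the diagonal at its far ends.

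In the fit with treatment as a block (limma, Benjamini-Hochberg adjusted p under 0.05), 33 genes (0.173% of the tested genes) passed. Of these, 11 (0.0576%) were higher in K6 and 22 (0.115%) were lower. All 33 were also at least 2-fold apart in both pairs. This is no second criterion, since only large differences on which the pairs nearly agreed passed the fit. The smallest difference among them was 4.41 in size, and their adjusted p-values lay between 0.045 and 0.048. A further 83 genes shared the next adjusted p, 0.054, and 171 genes had one under 0.06, so the threshold falls within a dense band. With 1 residual degree of freedom the number of calls depends on the processing, and 5 of 12 alternatives gave 0 calls. In 26 of the 33 genes, 1 line was not well above background on either array, and there the fold is given as a bound, since the low readings, and with them the p-values, rest on signal at the floor. Such genes entered the test only through the line in which they were high.

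Among the calls higher in K6, Rps4l had the largest bound. It is a copy of the ribosomal protein gene Rps4x, whose probe lies at chr6:148304018-148304077 (build mm9). It read -4.76, -5.87, 3.53 and 3.56. Neither K5 array was well above background and both K6 arrays were, at nearly equal levels. It was at least 273-fold higher in K6 (adjusted p = 0.045). A probe for the transcript ENSMUST00000059737, on chromosome 7 from 122070552 to 122070611, had the same pattern at -4.77, -5.65, 1.74 and 1.66 (at least 75.9-fold higher, adjusted p = 0.045). Rps4x itself, on the X chromosome, read 7.47, 7.07, 6.67 and 6.09 and did not pass (adjusted p = 0.26). The Rps4l and ENSMUST00000059737 probes, each of 60 bases, are different sequences, and their longest shared run is 7 bases. The first probe lies on the plus strand and the second on the minus strand. To show how unlike they are, 30 bases around that run are given 5′ to 3′, bases 17 to 46 of the first probe and 25 to 54 of the second, with the run in capitals.
Rps4l: ggacattgcggGGAAGGGgcgtttacgttt
ENSMUST00000059737: cttcatgatctGGAAGGGcaaaaagccgtg
Neither probe shares a run of more than 9 bases with the Rps4x probe.

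Among the other calls higher in K6 were genes best known from neurons. Camk2b, a subunit of the calcium- and calmodulin-dependent kinase II, read -3.56, -4.50, 1.21 and 0.86, well above background on all 4 arrays. Both K6 arrays stood clear of both K5 arrays, with differences of 4.77 and 5.36 (SE 0.29, adjusted p = 0.045, 33.4-fold), although its other probe gave 0.92. Ppp2r2c, a brain-enriched regulatory subunit of protein phosphatase 2A, read -6.29, -6.90, -0.80 and -1.37 and was at least 11-fold higher. Kif1a, the kinesin that carries synaptic vesicle precursors, read -6.29, -6.91, -1.68 and -2.32 (at least 5.84-fold). Dpysl5, a collapsin response mediator that acts in growth cones, read -6.39, -6.97, -1.66 and -2.37 (at least 5.77-fold). In all 3 the K5 arrays were not well above background and the K6 arrays were. The remaining calls were Serpind1 (heparin cofactor II), the mechanosensitive channel Piezo2, and 3 transcripts that the files name only by an identifier or a position, Gm10403, AK144104 and one on chromosome 18.

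Of the calls lower in K6, Mtus2 had the largest bound. It encodes a microtubule-associated protein and read 1.97, 1.77, -6.45 and -6.61, at a probe on chromosome 5 from 149125251 to 149125310. It was at least 90.4-fold lower in K6 (adjusted p = 0.045). This rests on that probe alone. The gene's other probes, at -6.48, -7.24, -4.97 and -7.32 and at -6.25, -7.06, -6.40 and -7.10, were well above background on no array of either line. Prdm16, a zinc finger regulator of transcription, read -0.90, -1.20, -6.38 and -7.13 (at least 12-fold lower). Neither gene was well above background on a K6 array.

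Slc16a3, the lactate exporter MCT4, read 5.26, 1.82, -0.83 and -4.53 at a probe on chromosome 11 from 120820023 to 120820082. All 4 arrays were well above background. Both lines were lower after halofuginone by a like amount, so the line differences of -6.09 and -6.35 agreed within 1 SE (0.26, adjusted p = 0.045, 74.5-fold). Cdh13, the T-cadherin, was likewise lower after halofuginone in both lines, at 3.33, 0.99, -2.22 and -5.61, with 1 of 2 K6 arrays well above background (difference -6.08, SE 0.37, adjusted p = 0.048). Auts2, a neurodevelopmental gene, read 0.52, 0.28, -3.93 and -4.32 on arrays all well above background (difference -4.53, 23.1-fold).

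Sulfation and sialylation enzymes, zinc finger genes and a DNA repair gene were also among the calls lower in K6. Hs6st2, a heparan sulfate 6-O-sulfotransferase, read -0.53, -0.17, -6.59 and -6.19 (at least 19.4-fold), with its other probe at -6.32. St8sia3, which adds sialic acid in chains, read -0.62, -0.72, -6.39 and -7.12 (at least 15.5-fold). Neil2, a DNA glycosylase, read -0.16, 0.42, -5.96 and -4.62, with 1 of 2 K6 arrays well above background. Its other probe gave -0.74, the smallest of the second readings in this group. Tgfb1i1, the focal adhesion protein Hic-5, read -1.84, -0.86, -6.54 and -5.62 (at least 9.72-fold lower). Of the 33 calls, 13 had another passing probe, and in all 13 it had the same direction. Further calls lower in K6 were Clec2f, 3110068a07rik, Prrg1, Uggt2, Otop3, Krba1, Zfp354a, Stmn2, Zfp467, Lrch2, Tram1l1 and Sgce.

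**Figure D2:**
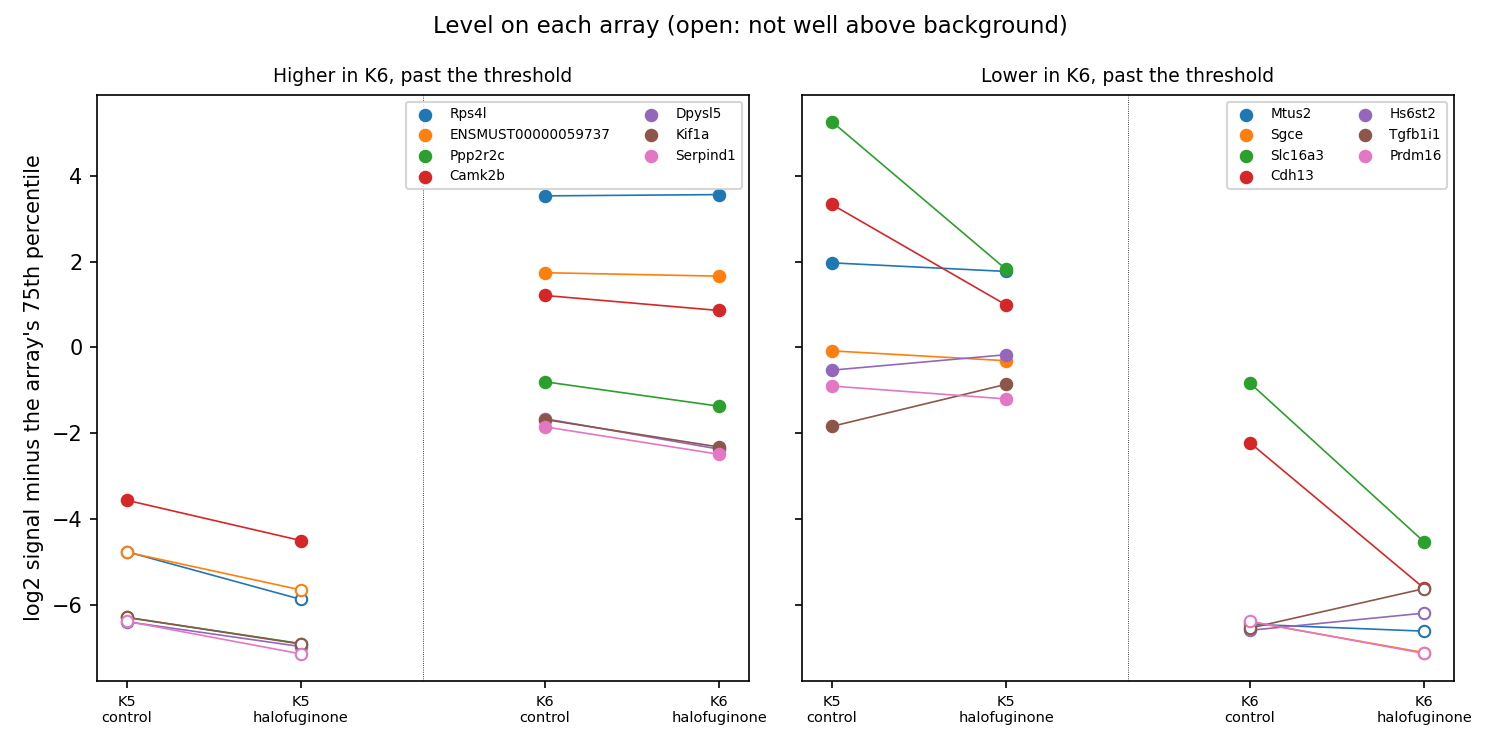
Log2 level minus the array's 75th percentile (y axis) on the 4 arrays (x axis) for 14 of the 33 genes past the threshold, 1 colour per gene, with lines joining the 2 arrays of a line of cells and open symbols where the spot was not well above background. The genes on the left lie lower on both K5 arrays than on either K6 array, and those on the right the reverse, with Slc16a3 and Cdh13 lower after halofuginone in both lines.

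Just outside the threshold lay genes with bounds as large as those of many calls. Zrsr1, an imprinted splicing factor gene, read -6.37, -7.12, 1.35 and 2.51 (adjusted p = 0.054, at least 89.0-fold higher in K6). Sema4f, a semaphorin, read -6.38, -6.57, -1.18 and -0.31 (adjusted p = 0.054). On the lower side, Arhgap44, a GTPase-activating protein, read 1.37, -0.65, -6.58 and -6.62, and Nmral1, an NADPH sensor, read 0.80, -0.72, -6.50 and -6.53. In each of these 4 genes the line with the low readings was not well above background on either array. By the same criterion, 224 genes were well above background on both K6 arrays and on neither K5 array, and 213 on both K5 arrays and on neither K6 array.

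Glutathione transferases, which conjugate glutathione to electrophiles, formed the list with the largest share of genes lower in K6 among lists of 10 or more tested genes. Of 22 tested members, 11 (50%, against 3.47% of all tested genes) were at least 2-fold lower in both pairs and 0 were higher. In 19 of 22 both differences were below 0 (6582 of 19093 over all tested genes). The list's median was -1.39 in the control pair and -2.42 in the halofuginone pair, where all tested genes had -0.06 and 0.02. Unadjusted limma p-values were under 0.05 in 16 members (2967 of 19093 over all tested genes), but 0 passed after adjustment. With probes well above background on all 4 arrays, the count lower in both pairs was 7. Gstm2 read 2.90, -0.59, -0.40 and -5.58, with 1 of 2 K6 arrays well above background. The K6 control array was close to the K5 halofuginone array, and the K6 halofuginone array stood lowest (differences -3.30 and -5.00, SE 0.50, adjusted p = 0.079). Gstt2 read -1.05, -3.52, -4.33 and -6.61 and was at least 5.09-fold lower in K6 (adjusted p = 0.054). Mgst1, the microsomal transferase, read 4.31, 2.05, 2.60 and -0.93 (difference -2.35, adjusted p = 0.13). Gstt3 read 1.92, -1.63, -0.27 and -7.18, so most of its difference came from the halofuginone pair. There the K6 array was not well above background, and the size of that difference rests on signal at the floor. The halofuginone pair was the wider one also for the list as a whole, and whether the lines differ in their response was not tested. The lowest signal well above background was itself lower on the halofuginone arrays, at -4.17, -4.92, -4.25 and -5.01. Its part in the wider halofuginone pair was not tested.

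The list of Nrf2 targets overlaps with this one, and 7 of its 10 members lower in both pairs are glutathione transferases. Of 43 tested Nrf2 targets, 10 (23.3%) were lower in both pairs and 2 (4.65%, against 3.14% of all tested genes) were higher, with medians of -0.34 and -0.72. Nqo1, the quinone reductase used as a readout of Nrf2, read -1.62, -3.35, -5.72 and -6.16. It was at least 4.43-fold lower in K6 (adjusted p = 0.079). Slc7a11, the cystine importer, read 0.79, 2.54, -0.31 and 0.98 (difference -1.33, adjusted p = 0.18). Abcc2, an efflux pump for glutathione conjugates, went the other way at -2.69, -4.78, 0.11 and -1.05 (difference 3.26, adjusted p = 0.068), with 1 of 2 K5 arrays well above background. Osgin1 was likewise higher in K6, by 1.35 (adjusted p = 0.18). The Nrf2 gene itself, Nfe2l2, read 4.21, 4.41, 3.89 and 4.37, and its repressor Keap1 read 2.65, 2.28, 2.24 and 1.80. Neither passed (adjusted p = 0.77 and 0.47), and the 2 probes of Nfe2l2 disagreed in sign.

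Among 19 tested aldehyde dehydrogenases, which oxidise aldehydes to acids, 4 (21.1%) were lower in K6 in both pairs and 1 was higher. Aldh3a1, which the study's title names, read 5.13, 2.25, 3.12 and 0.94 (differences -2.01 and -1.31, adjusted p = 0.15). Its K5 control array was the highest and its K6 halofuginone array the lowest. Aldh1a3, which makes retinoic acid, read 2.36, 3.11, -1.27 and 1.53 (adjusted p = 0.19). Aldh1l1 and Aldh7a1 were lower by -1.77 and -1.40 (adjusted p = 0.22 and 0.15), and Aldh1a2 was at least 1.20-fold higher in K6.

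Some genes of the foregut and of the classical subtype of pancreatic cancer were lower in K6. Of 26 tested members, 9 (34.6%) were lower in both pairs and 0 were higher, with medians of -0.73 and -0.64, and 0 passed the threshold. In the halofuginone pair alone, 11 were at least 2-fold lower and 2 higher. With probes well above background on all 4 arrays, 5 were lower in both pairs. Tff1, the gastric trefoil peptide, read 7.71, 5.84, 3.87 and 0.74 on arrays all well above background (differences -3.84 and -5.11, SE 0.41, adjusted p = 0.057, 22.2-fold). Tff2 read 2.77, -1.65, -1.26 and -7.16, with 1 of 2 K6 arrays well above background (adjusted p = 0.058). The genes of Tff1, Tff2 and Tff3 lie side by side on chromosome 17, and Tff3 read 2.59, -2.51, -0.49 and -3.88 (adjusted p = 0.20). Cldn18, the claudin of gastric epithelium, read 0.58, -0.40, -4.42 and -4.13, with 1 of 2 K6 arrays well above background (difference -4.37, adjusted p = 0.058). Sox2, a transcription factor of the foregut and of stem cells, read -3.15, -2.89, -6.56 and -7.30 (at least 3.05-fold lower, adjusted p = 0.057). Fut2, which makes the secretor blood group antigens, was at least 1.42-fold lower. The lineage regulators did not follow. Pdx1 read 2.53, 1.04, 2.45 and 0.56, Hnf4a read 5.58, 4.33, 5.43 and 3.99, and Gata6 read 2.57, 2.46, 1.63 and 2.75, with adjusted p-values of 0.66, 0.68 and 0.72.

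Some glycolytic and hypoxia-responsive genes were also lower in K6. Of 37 tested members, 8 (21.6%) were lower in both pairs and 0 were higher. In 21 both differences were below 0 against 1 with both above 0 (6582 and 5896 of 19093 over all tested genes). The medians were -0.88 in the control pair and -0.28 in the halofuginone pair. At least 2-fold lower were 17 in the control pair, with 0 higher, and 9 in the halofuginone pair, with 5 higher. Slc16a3 alone passed the threshold. Beside Slc16a3, Egln3, the HIF prolyl hydroxylase induced by HIF, read 2.60, -1.04, -1.24 and -5.06, with 1 of 2 K6 arrays well above background (differences -3.83 and -4.01, SE 0.26, adjusted p = 0.054). Ankrd37, another HIF target, read 1.91, -0.85, -1.16 and -3.87 (difference -3.05, adjusted p = 0.054, 8.26-fold). Aldoc, a brain-type aldolase, read 6.08, 0.81, 3.81 and -1.55, and Pdk1, the kinase that turns off pyruvate dehydrogenase, read 4.60, 2.55, 2.88 and 0.94 (adjusted p = 0.071 and 0.11). In these 4 genes the difference between lines was nearly the same in both pairs, while both lines were lower after halofuginone.

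**Figure D3:**
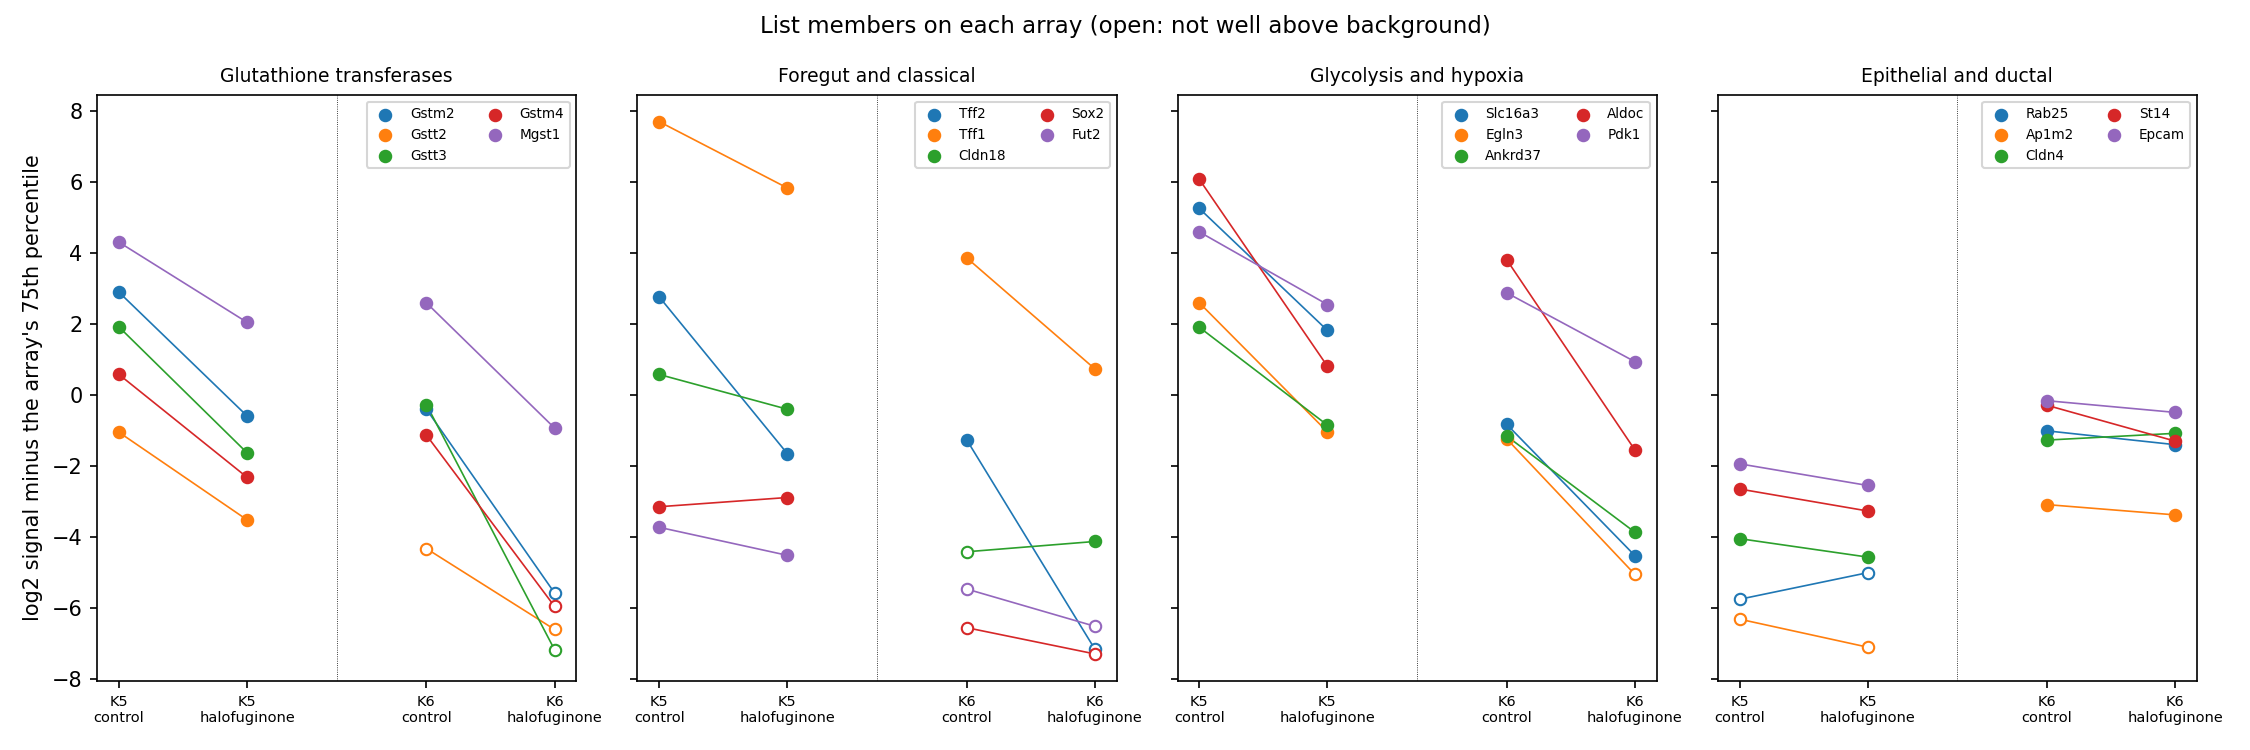
Log2 level minus the array's 75th percentile (y axis) on the 4 arrays (x axis) for 5 genes of each of 4 lists, chosen as those with the largest smaller difference of the 2 pairs, with open symbols where the spot was not well above background. Only genes at least 2-fold lower in K6 in both pairs were taken for the first 3 lists, and only higher ones for the epithelial list. The direction in each panel is therefore set by the choice.

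Some epithelial and ductal genes were higher in K6, while Krt8, Krt18 and E-cadherin were not apart. Krt19 read 7.56, 7.17, 6.06 and 6.99 (differences -1.50 and -0.18, adjusted p = 0.42). Of 25 tested keratins, 1 (4%, against 3.47% of all tested genes) was lower in both pairs and 0 were higher. In the control pair 6 keratins were at least 2-fold lower and 0 higher, and in the halofuginone pair 1 was lower and 1 higher. Of 31 tested epithelial and ductal genes, 10 (32.3%) were higher in both pairs and 2 (6.45%) lower, with medians of 0.22 and 0.24, and 0 passed the threshold. With probes well above background on all 4 arrays, 6 were higher in both pairs and the list's median over both pairs was -0.01 in place of 0.20. Rab25, a GTPase of apical recycling, read -5.76, -5.01, -1.01 and -1.40 and was at least 10.1-fold higher in K6 (adjusted p = 0.057). Ap1m2, the epithelial clathrin adaptor subunit, read -6.32, -7.11, -3.09 and -3.38 (at least 2.48-fold, adjusted p = 0.054). Neither was well above background on a K5 array. Cldn4, a tight junction claudin, read -4.05, -4.57, -1.27 and -1.08 (difference 3.13, adjusted p = 0.061, 8.77-fold). St14, the membrane protease matriptase, read -2.65, -3.27, -0.29 and -1.30, and Epcam, the epithelial adhesion molecule, read -1.94, -2.55, -0.16 and -0.49 (adjusted p = 0.083 and 0.097). All 4 arrays were well above background for these 3 genes, and both K6 arrays exceeded both K5 arrays. Of 13 tested claudins, 4 (30.8%) were higher in both pairs, Cldn6 by 2.19 (adjusted p = 0.081), Cldn7 by 1.24 and Cldn3 by 1.19 beside Cldn4, and Cldn18 was lower. Cldn3, Cldn4 and Cldn7 are also among the 10 epithelial and ductal genes counted above, so only Cldn6 is added here. The claudin median over both pairs was 0.92, and -0.03 without the filter on dim probes. The 2 epithelial genes lower in K6 were Cftr, the chloride channel of ducts, at 0.84, 0.77, -0.92 and -1.50, and Krt20, at 6.15, 4.28, 4.90 and 2.70 (adjusted p = 0.098 and 0.15).

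The mesenchymal list was split. Of 21 tested members, 5 (23.8%) were lower in K6 in both pairs and 3 (14.3%) higher. Beside Cdh13, Sparc, a matricellular protein, read 5.66, 3.76, 2.45 and -1.07 (difference -4.02, adjusted p = 0.079), with its other probe at -4.33. Cdh2, N-cadherin, read 1.97, 2.50, -0.27 and -0.16 (difference -2.45, adjusted p = 0.072), and Twist1 was lower by -1.23. The higher members were the transcription factor Snai2, at -2.19, 1.55, -0.06 and 3.86 (difference 2.22, adjusted p = 0.077), its relative Snai1, at least 2-fold higher, and Fn1, fibronectin, at 5.57, 6.10, 6.85 and 7.92 (adjusted p = 0.15). Zeb1 and Zeb2 did not pass (adjusted p = 0.66 and 0.46). Of the 15 fibroblast and stellate markers 5 were tested, Fbln1, Pdgfra and Col1a2 being lower in both pairs and Col3a1 higher. Their part in the mesenchymal values was not tested.

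Matrix genes differed in both directions. Among 18 tested collagens 4 (22.2%) were higher in K6 and 2 (11.1%) lower, and among 39 laminins and matrix glycoproteins 6 (15.4%) were higher and 5 (12.8%) lower. Col7a1, which forms anchoring fibrils, read -1.38, -0.33, 2.43 and 3.23 (differences 3.81 and 3.56, SE 0.26, adjusted p = 0.054, 12.9-fold). Col8a1 read -1.30, -2.28, 1.95 and 0.95 (difference 3.24, adjusted p = 0.054). Lama3, a chain of the basement membrane laminin that anchors epithelia, read -6.48, -4.48, -2.06 and -0.46, with 1 of 2 K5 arrays well above background (adjusted p = 0.054). Lamb3, its partner chain, read 1.0, 3.04, 2.24 and 4.77 (adjusted p = 0.15). Lama3 and Lamb3 are also in the squamous list, in which 3 of 20 tested genes were higher and 0 lower, with Sprr1b at least 2.57-fold higher. Trp63, the regulator of squamous cells, read 1.61, 1.86, 1.65 and 2.05 (adjusted p = 0.85). On the lower side, Fbln1 read 1.17, -0.49, -2.36 and -4.05 (difference -3.55, adjusted p = 0.054), with its other probes between -3.48 and -3.05. Efemp1, a fibulin, read 4.25, 2.90, 1.52 and -0.66 (adjusted p = 0.067).

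**Figure D4:**
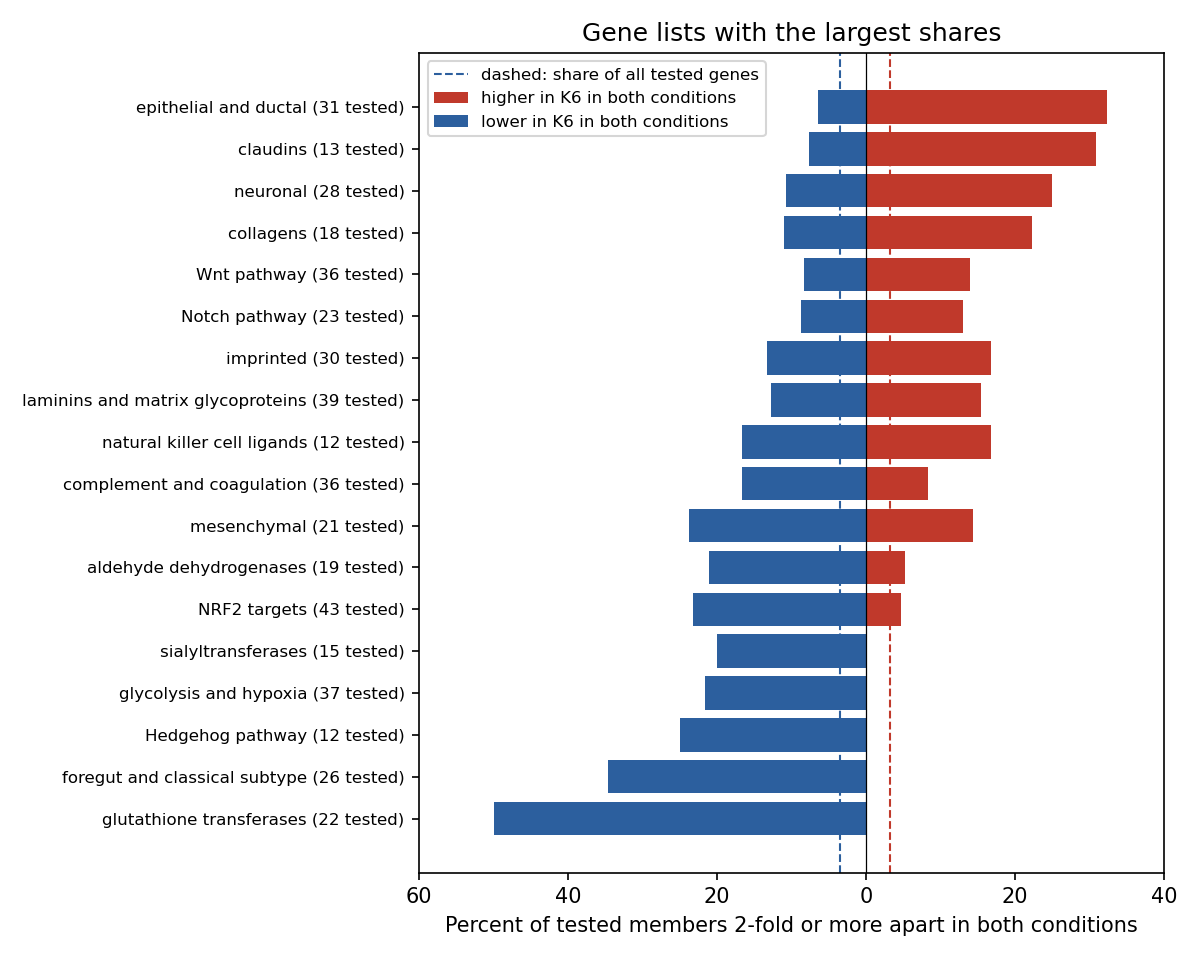
Percent of the tested members of each gene list (rows, with the number tested) that were at least 2-fold higher (red, to the right) or lower (blue, to the left) in K6 in both pairs, for the lists of 10 or more tested genes with the largest shares. Dashed lines mark 3.14% and 3.47% of all tested genes, and the bars run from 50% lower for glutathione transferases to 32.3% higher for the epithelial and ductal list. Lists share genes, such as Cldn3, Cldn4 and Cldn7 in the claudin and epithelial lists.

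Neuronal genes differed in both directions. Of 28 tested members, 7 (25.0%) were higher in both pairs and 3 lower (4 and 0 with probes well above background on all 4 arrays). Of the 11 calls higher in K6, 4 belong to this list (Camk2b, Ppp2r2c, Dpysl5 and Kif1a), against 1 of the 22 lower (Stmn2). This overlap is a description only, since the list was written with earlier results of these data known. Ppp2r2c, Dpysl5 and Kif1a also entered the test only through K6, and Stmn2 only through K5. The phosphatase subunits went opposite ways, since Ppp2r2b read 0.21, -1.47, -3.32 and -4.95, with 1 of 2 K6 arrays well above background (difference -3.51, adjusted p = 0.054), where Ppp2r2c was higher. Among 49 tested axon guidance genes, 4 (8.16%) were higher and 4 (8.16%) lower. Sema3a, a secreted repellent, read -5.38, -7.03, -1.59 and -2.23 (at least 6.2-fold higher, adjusted p = 0.054), with its other probe at 4.67. Plxna4, a plexin that serves as its receptor, read -3.35, -1.55, 0.00 and 1.71 on arrays all well above background (difference 3.31, adjusted p = 0.054). Robo1, the receptor for Slit, read -0.48, -2.54, -6.45 and -7.21 (at least 8.71-fold lower, adjusted p = 0.054).

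Some ligands and receptors of the morphogen pathways were apart in both pairs. In the Hedgehog list, 3 of 12 tested genes (25.0%) were lower in K6 and 0 higher, and these 3 encode ligands and a co-receptor. The count lower in both pairs ranged from 1 to 3 over the alternatives, and of these genes only Ihh was well above background on all 4 arrays. Shh, sonic hedgehog, read 0.36, -3.45, -6.17 and -7.12 (at least 8.5-fold lower, adjusted p = 0.11). Ihh, Indian hedgehog, read 1.18, -0.60, -2.29 and -4.03 on arrays all well above background, with nearly equal differences of -3.47 and -3.42 (adjusted p = 0.054, 10.9-fold). Gas1, the co-receptor, read 1.32, -1.03, -2.13 and -7.14, with 1 of 2 K6 arrays well above background (adjusted p = 0.11).

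In the Wnt list, 5 of 36 tested genes (13.9%) were higher in K6 and 3 (8.33%) lower. The ligands Wnt7b, at -1.32, 0.13, 2.09 and 2.52, Wnt10a, at -0.51, -1.33, 1.33 and 1.12, and Wnt7a, at 0.97, 2.06, 2.62 and 3.79, were higher (adjusted p = 0.082, 0.097 and 0.11). Rnf43, a ubiquitin ligase that removes Wnt receptors, was higher by 1.59 (adjusted p = 0.13). Wnt5a, a ligand of noncanonical signalling, read 0.02, -0.24, -2.11 and -1.91 (difference -1.90, adjusted p = 0.10), and the receptor Fzd8 was at least 3.90-fold lower. In the Notch list, Dll1, Notch1 and Lfng were higher and Hey1 and Jag2 lower among 23 tested. Notch1 read -3.49, -2.46, -1.70 and -0.27 (adjusted p = 0.095). Of 71 growth factor ligands and receptors, 4 (5.63%) were higher and 10 (14.1%) lower, the lower ones led by Fgf2 at -1.51, -3.24, -6.37 and -7.12 (at least 4.77-fold, adjusted p = 0.054) and the receptors Kit (at least 3.29-fold) and Pdgfra (at least 2.25-fold).

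Among 35 tested chemokines and cytokines, 4 (11.4%) were higher in K6 in both pairs and 3 (8.57%) lower. Il33, an epithelial alarmin, read 3.72, 3.24, 1.52 and -0.97 and the chemokine Ccl2 read 2.38, 0.61, 0.85 and -2.50 (adjusted p = 0.14 and 0.17), both lower in K6 in both pairs. Il23a was at least 4.61-fold higher, and Il11 and Csf3 were higher by 2.38 and 3.02 (adjusted p = 0.095 and 0.070). Of 33 interferon-stimulated genes, 3 (9.09%) were lower and 0 higher in both pairs. The pairs differed here, with 5 genes higher and 3 lower by 2-fold in the control pair, and 1 higher and 16 lower in the halofuginone pair. The count lower in both pairs ranged from 1 to 6 over the alternatives. Mx2 read -1.22, -2.93, -6.44 and -7.19 (at least 5.87-fold lower, adjusted p = 0.054), and Isg15 was lower by -1.53 (adjusted p = 0.15). Complement and coagulation genes gave 3 of 36 higher and 6 lower, among them Pros1, protein S, at 2.56, 0.33, -0.35 and -4.11 (difference -3.68, adjusted p = 0.083).

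Of 15 tested sialyltransferases 3 (20%) were lower in both pairs and 0 higher, and of 12 natural killer cell ligands 2 (16.7%) were higher and 2 lower. Of 49 tested cell cycle and replication genes 0 were at least 2-fold apart in both pairs. Both differences were below 0 in 30 (6582 of 19093 over all tested genes). In the halofuginone pair 12 were at least 2-fold lower, against 10.5% of all tested genes. Of 98 ribosomal protein genes and paralogs only Rps4l was apart in both pairs. The others were shifted by less, with 80 of 98 below 0 in both pairs (6582 of 19093 over all tested genes) and medians of -0.41 and -0.32. Of 241 solute carriers, 7 (2.90%) were higher and 10 (4.15%) lower, near the 3.14% and 3.47% of all tested genes. Among 24 genes of pancreatic cancer drivers, Rnf43 alone was apart in both pairs (4.17% higher, also near the share of all tested genes). Trp53 read 2.08, 1.95, 1.71 and 1.32, Cdkn2a read 5.92, 5.69, 5.92 and 5.11 and Smad4 read 3.48, 3.86, 3.12 and 3.70, with adjusted p-values of 0.44, 0.66 and 0.66. Nnt, a gene known to differ between C57BL/6 substrains, read 3.65, 2.73, 3.42 and 1.96 (adjusted p = 0.47).

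Imprinted genes, expressed from 1 parental copy, contributed large differences in both directions. Of 30 tested, 5 (16.7%) were higher in K6 and 4 (13.3%) lower. Beside Zrsr1, Phlda2 read -6.34, -2.51, -1.80 and 0.73 (difference 3.89, adjusted p = 0.069) and its neighbour in the same imprinted domain, the cell cycle inhibitor Cdkn1c, was at least 3.26-fold higher. The lower ones were Ddc, Dio3, Calcr and Sgce. Sgce, a sarcoglycan, was past the threshold at -0.08, -0.31, -6.39 and -7.11 (at least 21.6-fold lower, adjusted p = 0.045), and its other probe gave -3.73. Sgce lies on chromosome 6, with its probe from 4624457 to 4624516. Its neighbours there were chosen for description after their values were seen. Casd1, whose probe begins at 4592676, read -0.97, -0.33, -6.52 and -7.28 (at least 15.8-fold lower, adjusted p = 0.054), Col1a2, at 4490619, was at least 2.77-fold lower, and Calcr, at 3635940, was at least 7.05-fold lower. On the other side, Pon3 read 2.61, 1.18, -0.22 and -1.94 and Pon2 read 3.03, 3.32, 1.83 and 1.36. Not all genes of the interval followed. Bet1 read 0.22, 0.39, 0.72 and -0.15, and Ccdc132 read -0.09, -0.38, 0.43 and 0.04.

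Some genes that differed in the same direction lay side by side. Of 590 placed genes higher in both pairs, the next tested gene along the chromosome was also higher in 59 (10%) and lower in 18 (3.05%). Of 660 lower genes, the next was also lower in 45 (6.82%) and higher in 23 (3.48%), where 3.14% and 3.47% of all tested genes were higher and lower. Runs of at least 3 such neighbours included the trefoil factor genes and the Gstm genes on chromosome 3 (both lower in K6) and, on the higher side, Klra genes on chromosome 6, which encode natural killer cell receptors, Ly6 genes on chromosome 15, Zscan4 genes on chromosome 7 and Serpinb9 genes on chromosome 13. These runs were picked after the values were seen, and near-identical copies can bind the same transcript. For Ly6c1 and Ly6c2, and for Gsta2 and its neighbour Gm10639, the sequences show how far this goes. Other such pairs are Serpinb9f and Serpinb9g, whose probes share 41 bases in a row, and Klra7 and Klra23, whose probes share 31. On mm9 the 60-base probes lie at chr15:74875495-74875554, chr15:74938637-74938695, chr9:78178856-78178915 (all on the minus strand) and chr9:78153243-78153302 (plus strand), in that order. Bases 1 to 30 of the first pair and 16 to 45 of the second are given 5′ to 3′, with bases of the longest shared run in capitals.
Ly6c1: tattatagTATCACCATCCACACATAAGTA
Ly6c2: tattatacTATCACCATCCACACATAAGTA
Gsta2: ctctaattGTTTGCAATTATAAAATACAAT
Gm10639: ctctaatgGTTTGCAATTATAAAATACAAT
The 2 Ly6c probes share 48 bases in a row of 60 and read alike (3.96, 1.64, 5.97 and 2.99 for Ly6c1, against 3.93, 1.57, 5.90 and 2.77 for Ly6c2), so they count as 1 reading. Gsta2 and Gm10639 share 30 bases in a row. The probes of Gstm1, Gstm2, Gstm3, Gstm4 and Gstm6 share at most 9 in any pair and those of the trefoil factors at most 6. The files place the Gstm1 probe on chromosome 5, away from the other Gstm genes, and its other probe gave -2.21.

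The line difference also varied by whole chromosome. Over 20 chromosomes the median differences of the control and halofuginone pairs correlated at Pearson r = 0.97, given as a description, since the points share the 4 arrays, and 13 of the 20 had the same sign in both. Genes of chromosome 10 had the highest medians, 0.28 and 0.33 over 859 genes, and 5.12% of them were at least 2-fold higher in both pairs against 2.10% lower. Chromosome 16 had 0.21 and 0.12, and chromosome 1 had 0.14 and 0.16. Chromosome 14 had the lowest control median, -0.30, with -0.17 in the halofuginone pair, and 5.72% of its 682 genes were lower in both pairs against 1.61% higher. Chromosomes 3, 9, 11, 18, 19 and X were also below the medians of all tested genes in both pairs, as were chromosomes 2 and 7 by a small margin. These shifts are small beside the differences of single genes above.

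**Figure D5:**
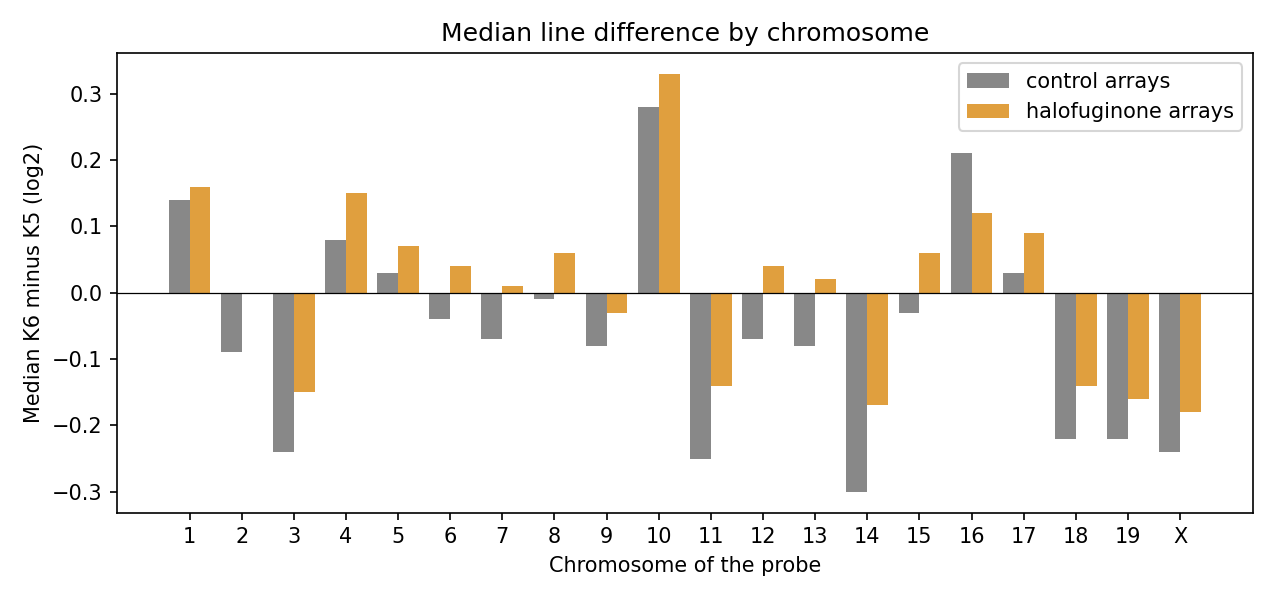
Median K6 minus K5 log2 difference (y axis) of the tested genes on each chromosome (x axis), in the control pair (grey) and the halofuginone pair (orange). Chromosome 10 stands highest in both pairs at 0.28 and 0.33, and chromosomes 3, 9, 11, 14, 18, 19 and X lie below 0 in both.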

How the data were processed

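Total RNA from 4 samples was amplified to Cy3-labelled cRNA for Agilent arrays of 1 colour, per the labels' protocols. The deposited intensity is the processed signal of Agilent Feature Extraction (10.7.1.1 per the file headers, 9.5.1.1 per the submitters' processing notes), background-subtracted within each array and not scaled between arrays. The share of spots well above background ranged from 47.2% to 54.0%, none was saturated, and the number of arrays limits precision. The authors' deposited value table, also of intensity and with equal quantiles on every array, was used as an alternative; how it was made is not given in the labels.

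After removal of control spots and those marked as outliers, the spots of a probe were averaged on the log2 scale. Each array's 75th percentile over all spots was subtracted. A gene took its brightest probe, and genes well above background on 2 or more arrays were tested with limma 3.58.1 in R 4.3.3 (lmFit, eBayes, line plus treatment, 1 residual and 2.97 prior degrees of freedom), adjusted by Benjamini-Hochberg over 19093 genes at 0.05. The limma fit and the rule for genes apart in both pairs were checked on made gene values, all marked well above background. The steps before the fit and the handling of dim signal were not checked in this way. Arrays are paired by treatment, and the labels give no replicate numbers.

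Where a line was dim on both arrays, its level was set to at least the array's lowest signal well above background, which gives the "at least" folds. The p beside a bound comes from values as read. Probe positions are on mm9, and exon or UTR positions were not used here. Named genes are those past the threshold, the 15 higher and 15 lower with the largest smaller pair difference, up to 5 per list and direction, and a fixed set. Members and lists were chosen with earlier results of these data known. A few genes that the rule names are not reported here. Alternatives are in the closing section.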

Additional observations from a re-analysis of the deposited data

Results flagged for a closer look

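Between the 2 conditions, 196 tested genes (1.03%) were at least 2-fold apart in opposite directions, 89 of them lower in K6 in the control pair and higher after halofuginone, and the rest the reverse. The difference between conditions was not tested. Only 35 of the 196 were well above background on all 4 arrays. The gene with the largest smaller difference was Gm36796, at -6.31, -2.42, 0.30 and -7.14 in the order K5 control, K5 halofuginone, K6 control and K6 halofuginone (differences 6.61 and -4.72). Among protein-coding genes Gnat1, the rod transducin, read 0.10, -7.05, -6.39 and -2.80, and Prss27, a serine protease, read -1.92, -7.02, -5.72 and -2.23. These 3 were picked after their values were seen.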

How the results depend on the processing

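With 1 array per line and treatment, leaving out any array left no residual degree of freedom. The value was then the other condition's pair, with no test. Of 248 named genes, 8 had pair differences of opposite sign, none of them past the threshold or apart in both pairs, and most others were named for an equal sign. The fit reported pairs the arrays by treatment. Without that block (no replicate block), limma called 0 genes, with 798 at an unadjusted p under 0.05.

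Genes higher and lower past the threshold numbered 595 and 730 with normexp, 61 and 88 with quantile normalization, 116 and 182 with each array's median, 61 and 91 with the authors' deposited table, 145 and 160 with probes well above background on all 4 arrays, and 134 and 159 with an intensity trend. With the percentile over probes, an alternative chosen after seeing the data, they were 70 and 95. All 33 reported calls were kept in each of these alternatives except that with probes well above background on all 4 arrays. That alternative leaves out genes dim on any array, and it kept 3 of the 33. Limma called 0 in each direction with the percentile over probes bright on all 4 arrays (2833 at an unadjusted p under 0.05), no filter (3655), the mean over probes (2892) and a common floor (2500), against 2967 in the fit reported.

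At least 2-fold apart in both pairs were 333 higher and 409 lower genes with normexp, and 323 and 336 with probes bright on all 4 arrays. In the control pair the higher genes fell to 735 with normexp, and to 776 (731 lower) with probes bright on all 4 arrays. In the halofuginone pair 2887 were higher with no filter, and 1273 (normexp) and 1332 (probes bright on all 4 arrays) were lower.

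Median centring moved the median of all genes in the control pair from -0.06 to -0.19. The median of 21 of 53 gene lists took either sign over the alternatives, and the claudin median became -0.03 with no filter. The values that follow are fitted K6 minus K5 differences, not levels. The difference of Kdm5d was -0.01, -0.01, -0.07, -0.02 and 0 (normexp, quantile, median, percentile over bright probes, authors' table). That of Krt18 was 0.07 and that of Krt8 0.15, each with quantile and the authors' table. For Nfe2l2 it was 0.12 with the mean over probes, and for Vim -0.01 with the median. For Ptprc it was -0.01, -0.07, -0.02 and -0.01 (quantile, median, percentile over bright probes, authors' table). Where not shown by an alternative's own construction, the cause was not tested. Dim signal limits 26 of the 33 calls to bounds.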
